A study of Mus musculus with 4 samples.

Results

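The calcium channel CatSper and the sperm potassium channel are assembled from products of germ-cell genes, and 10 of these genes were followed here out of 22552 gene symbols measured. They were taken by name: the pore-forming subunit genes Catsper1, Catsper2, Catsper3 and Catsper4, the auxiliary subunit genes Catsperb, Catsperg1, Catsperg2 and Tmem146 (the older symbol of Catsperd), the potassium channel gene Kcnu1, and Lrrc52, the gene for its auxiliary subunit. RNA had been sequenced from haploid cells sorted by their Hoechst stain from testes of male mice at 23 days of age. At that age, per the design text, development has reached spermatids of step 3. The wild type and the knockout of Sox30, which encodes a SOX family transcription factor, had 2 libraries each. The strain was given as DBA/C57/ICR and DBA/C59/ICR for wild-type libraries 1 and 2 and as DBA/C58/ICR and DBA/C60/ICR for knockout libraries 1 and 2. The labels leave unsaid what was deleted from Sox30, whether the knockout was limited to a cell type, or whether each library was made from another animal. The p-values therefore rest on a spread between libraries that may be technical.

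CatSper is the channel of the sperm tail through which calcium enters to drive the vigorous beating that sperm need to reach and penetrate the egg. Its pore is built from 4 different proteins, each supplying a part of the ring, and male mice that lack any of the pore proteins are sterile. Auxiliary proteins that span the membrane and extend far outside the cell surround the pore. Kcnu1 encodes SLO3, the potassium channel that makes the sperm membrane potential more negative during capacitation, and LRRC52 is the leucine-rich repeat protein that joins SLO3 and shifts its gating. The comparison asks which of these transcripts depend on the Sox30 genotype in haploid cells, and whether the pore-forming genes differ from the auxiliary genes.

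Levels are given as FPKM, fragments scaled by transcript length and by library size, so that levels of different genes can be compared. Sox30 was at 11.4 and 16.2 FPKM in wild-type libraries 1 and 2 and at 1.46 and 3.16 FPKM in knockout libraries 1 and 2, so the labels and the targeted gene point the same way, with transcript still present in the knockout. Read counts were not used here and the absolute depth is unknown. From the steps between the lowest values, the depth relative to wild-type library 1 was 1.39 in wild-type library 2, 1.24 in knockout library 1 and 1.17 in knockout library 2. Changes are differences of log2(FPKM + 1), knockout minus wild type, tested with limma and adjusted by the Benjamini-Hochberg method over the 9124 genes with a mean of at least 1 FPKM, with a threshold of 0.05. All 10 channel genes were among those tested. Catsper1, Catsper3, Catsper4 and Lrrc52 reached that mean through the wild-type libraries alone, with each knockout value below 1 FPKM, so these 4 could be tested only because they were high in the wild type. Among round spermatid marker genes, 4 of 8 fell, where 13.4% of all genes tested fell, and all 8 were detected in each wild-type library. Tssk3, among those that fell, had each knockout value below 1 FPKM and could be tested only through the wild type. Leydig cell markers summed to 60.3 and 37.3 FPKM in the wild type and to 0.0674 FPKM in knockout library 1. Most of the wild-type sum was Insl3, at 54.8 and 30.3 FPKM. Of the 8 Leydig markers, 1 and 2 were listed at 0 in wild-type libraries 1 and 2, and 6 and 7 in knockout libraries 1 and 2. Of all 22552 symbols, 6414 and 5915 were at 0 in wild-type libraries 1 and 2, and 9329 and 11112 in knockout libraries 1 and 2. Blood and macrophage markers summed to 248 and 149 FPKM in wild-type libraries against 10.05 and 0.461 FPKM in knockout libraries. Most of the wild-type sum was the globin gene Hba-a1, at 220 and 109 FPKM. The genes of the list other than globins, Ptprc, Cd68, Csf1r, Lyz2, Emr1 and Cd74, were below 1 FPKM in every library. The sums therefore describe globin transcripts. The part of these other cells in the results below was not tested. In bulk RNA, fewer cells of a kind and less RNA per cell cannot be told apart.

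Transcripts of 3 of the 4 pore-forming genes were almost absent from the knockout, whereas those of Catsper2 lay within or above the wild-type range. Catsper1, Catsper3 and Catsper4 fell, none of the auxiliary genes passed the test (1 of 4, Catsperb, was lower at an unadjusted p under 0.05, as were 23.0% of all genes tested), and of the potassium channel pair Lrrc52 fell and Kcnu1 did not pass. Altogether 4 of the 10 genes passed limma as lower, the same 4 that entered the test through the wild type, and 0 as higher, where 13.4% of all genes tested fell and 1.95% rose; no channel gene had an increase at an unadjusted p under 0.05. Knockout values lay below both wild-type values for 6 of the 10 genes, against 38.6% of all genes tested, and above both for 0, against 22.2%. The median change of the 4 pore-forming genes was -4.94 and that of the 4 auxiliary genes -0.37, beside -0.23 over all genes tested.

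**Figure D1:**
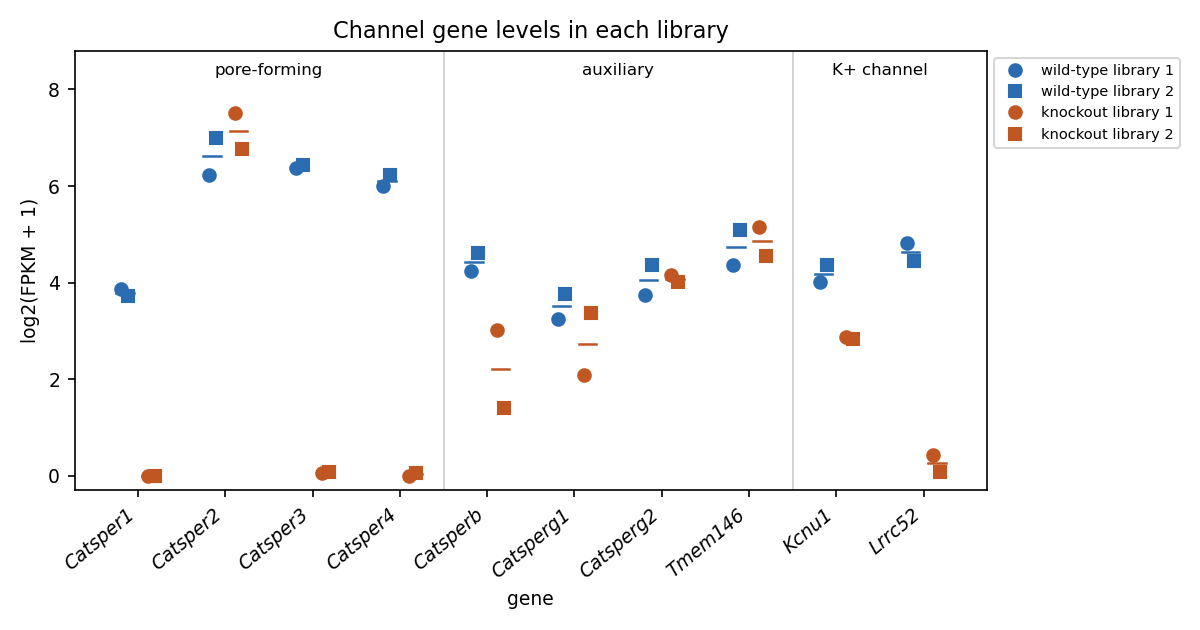
Levels of the 10 channel genes as log2(FPKM + 1) on the vertical axis, with 1 symbol per library and a short line at the mean of each genotype. Catsper1, Catsper3, Catsper4 and Lrrc52 sit near 0 in both knockout libraries, while the knockout symbols of Catsper2, Catsperg1, Catsperg2 and Tmem146 overlap the wild type.

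Catsper3, a pore-forming subunit gene, was at 82.1 and 84.9 FPKM in wild-type libraries 1 and 2 and at 0.0481 and 0.0512 FPKM in knockout libraries 1 and 2. Both wild-type libraries were high and close together, and both knockout libraries lay at the bottom of the measurable range. The ratio of the knockout values, 1.06, was also the ratio of the relative depths of those libraries, 1.06, as the same small number of fragments in each would give. The log2 change was -6.33 (SE 0.33, limma adjusted p = 4.8e-04). Catsper4, another pore-forming gene, had wild-type levels of 63.2 and 73.6 FPKM, was listed at 0 in knockout library 1 and stood at 0.0431 FPKM in knockout library 2. The groups were again far apart, and the change was -6.08 (SE 0.34, limma adjusted p = 4.8e-04). Catsper1, the founding member of the family, was the least abundant of the pore-forming genes in the wild type, at 13.5 and 12.3 FPKM, and was listed at 0 in both knockout libraries. Its change on the log2(FPKM + 1) scale was -3.79 (SE 0.34, limma adjusted p = 0.00132). That scale limits the fall of a gene to its wild-type level, so the smaller value for Catsper1 does not mean that more of its transcript was left.

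Catsper2, the remaining pore-forming gene, was the most abundant of the 10 genes on average in both genotypes. It was at 74.1 and 126 FPKM in wild-type libraries 1 and 2 and at 181 and 109 FPKM in knockout libraries 1 and 2. The ranges overlapped, since knockout library 2 lay between the wild-type values. The log2 change was 0.53 (SE 0.41, 95% interval -0.47 to 1.53, limma adjusted p = 0.417), an interval that does not reach the falls seen for the other pore-forming genes. In the fit without knockout library 2 it was 0.90, and without knockout library 1 it was 0.16. Catsper2 and Pdia3, the gene of an endoplasmic reticulum chaperone, overlap in the RefSeq annotation, and without knowledge of strand their reads in the shared stretch cannot be told apart. Pdia3 was at 99.4 and 148 FPKM in wild-type cells against 84.6 and 43.9 FPKM in knockout cells (change -0.98, limma adjusted p = 0.174). Both knockout values of Pdia3 lay below both wild-type values, as they did for 38.6% of all genes tested. The part of shared reads in the values of either gene was not tested.

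The make-up of the pore-forming transcripts therefore differed between genotypes in every library. In the wild type Catsper2 gave 31.8% and 42.5% of the summed FPKM of the 4 genes, Catsper3 35.2% and 28.6%, Catsper4 27.1% and 24.8%, and Catsper1 5.80% and 4.12%. Wild-type cells thus held 3 abundant pore-forming transcripts and a scarce one. In knockout libraries 1 and 2 Catsper2 made up 99.97% and 99.91% of the sum. The sum itself reached 233 and 297 FPKM in wild-type cells against 181 and 109 FPKM in knockout cells, where Catsper2 carried almost all of it.

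**Figure D2:**
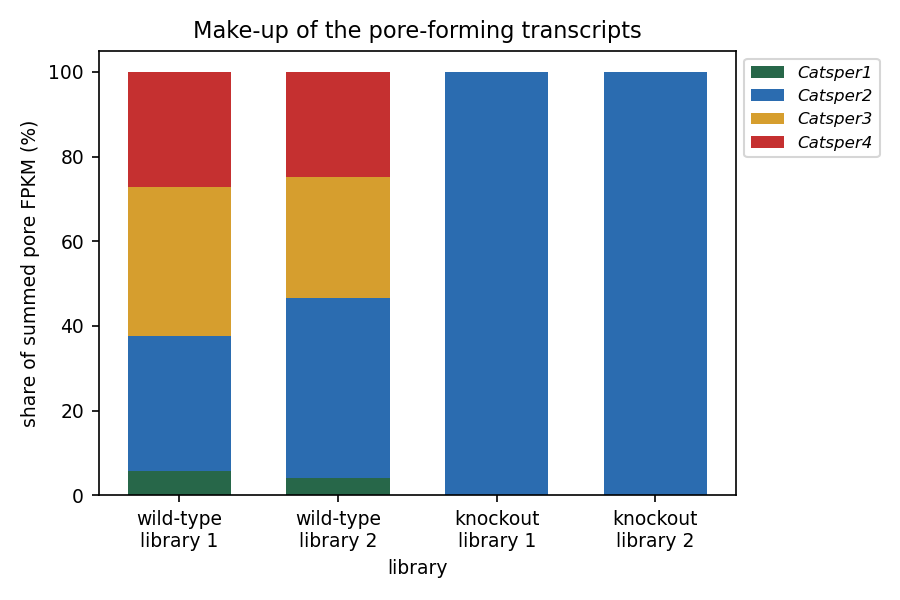
Share of each pore-forming gene in the summed FPKM of the 4 genes (vertical axis, percent), with 1 bar per library. Catsper2 fills 31.8% and 42.5% of the wild-type bars and 99.97% and 99.91% of the knockout bars.

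The start regions of the genes that fell and of those that did not are shown to let their letters be compared. RefSeq promoter windows, which run from 250 bases before to 50 after a start site on build GRCm38.p6, were found for 7 of the 10 genes. Printed are the stretches before the start that hold no exon of any gene in GENCODE M21, with every CG pair in capitals, for the fallen genes Catsper3, Catsper4 and Lrrc52 and, for contrast, for Tmem146, which did not pass the test.
Catsper3, chr13:55784329-55784424, plus strand: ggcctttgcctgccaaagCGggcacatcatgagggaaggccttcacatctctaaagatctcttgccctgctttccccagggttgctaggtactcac
Catsper4, chr4:134227384-134227633, minus strand: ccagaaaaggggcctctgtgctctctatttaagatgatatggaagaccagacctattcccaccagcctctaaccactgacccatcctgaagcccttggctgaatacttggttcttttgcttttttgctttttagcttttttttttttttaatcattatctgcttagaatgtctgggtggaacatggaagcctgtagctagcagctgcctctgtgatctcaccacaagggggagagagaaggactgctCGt
Lrrc52, chr1:167466781-167467030, minus strand: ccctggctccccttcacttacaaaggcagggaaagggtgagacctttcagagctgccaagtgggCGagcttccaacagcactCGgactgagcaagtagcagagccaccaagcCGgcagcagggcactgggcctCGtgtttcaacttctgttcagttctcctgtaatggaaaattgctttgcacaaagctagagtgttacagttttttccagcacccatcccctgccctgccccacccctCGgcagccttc
Tmem146 (Catsperd), first listed start, chr17:56626888-56627046, plus strand: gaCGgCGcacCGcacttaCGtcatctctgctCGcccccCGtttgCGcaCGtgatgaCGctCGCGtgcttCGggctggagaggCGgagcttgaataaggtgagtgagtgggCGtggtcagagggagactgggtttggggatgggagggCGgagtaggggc
Over the full 250 bases before the start, Catsper3 held 2 CG pairs, Catsper4 held 1 and Lrrc52 held 5, beside a median of 6 in 32851 windows of the same length. The genes that did not pass were less alike: Catsper2 held 35 CG pairs, more than 97.0% of all windows, Tmem146 held 25 at its first and 11 at its second listed start, and Catsperg1 held 5 and 7. Catsperb, with intermediate values in the knockout, held 1. The window of Catsper2 lies wholly in annotated exons, so its CG pairs were all counted in exon letters, and it is not printed. The CG counts of Catsper2 and Tmem146 were thus above those of Catsper3, Catsper4 and Lrrc52, and those of Catsperg1 and Catsperb, whose stretches are not printed, were not set apart from them. Catsper1, which also fell, had no window, and CG counts were chosen after seeing values.

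The core letters of SOX binding sites, ACAAT, searched on both strands, were in 27.7% of all windows over the 250 bases. Of the 7 channel genes with a window, Catsperb held them, on the strand opposite to the gene and beginning at position -82 from the start, and the other 6 did not. The longer form ACAATGG, which contains the core, was before none of the 7, beside 3.02% of all windows. The short form of the cAMP response element, TGACG, searched on both strands, was in 17.8% of all windows. It stood before Catsper2, beginning at -77, and 3 times before the first start of Tmem146, beginning at -160, -141 and -106, and before none of the other 5 genes. The match before Catsper2 lies in annotated exon letters. The full element TGACGTCA, which contains the short form, was before none of the 7, beside 1.55% of all windows. These are matches of letters in short windows and say nothing of binding.

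None of the auxiliary genes passed, and differences between them were not tested. Catsperb, for the subunit beta, was at 17.9 and 23.5 FPKM in wild-type cells against 7.14 and 1.66 FPKM in knockout cells. Both knockout libraries were below both wild-type libraries, but on the log2(FPKM + 1) scale they differed from each other by more than the wild-type pair did. The change was -2.21 (SE 0.58, 95% interval -3.65 to -0.77) and missed the threshold (limma adjusted p = 0.0582). Catsperb passed when the pseudocount was 5 (change -1.51, limma adjusted p = 0.0323) and when the mean had to reach 5 FPKM (0.0417). It also passed under median-ratio scaling (-2.06, 0.0243) or quantile normalization (-1.73, 0.0295). It lay further from the threshold once the pseudocount was lowered to 0.1 (-2.53, limma adjusted p = 0.109). The same held when low values were not filtered out (0.139). The change of Catsperb was -3.02 when knockout library 1 was left out and -1.40 when knockout library 2 was. Without wild-type library 1 the change of Catsperb was -2.40, and without wild-type library 2 it was -2.02. Its transcripts had the lowest GC content of the 10 genes, 38.0%, and genes of the lowest of 5 GC classes had a median change of -0.70. After a correction for GC content, chosen after seeing the data, the change of Catsperb was -1.30 (limma adjusted p = 0.104).

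Tmem146, the gene of subunit delta, was at 19.6 and 33.2 FPKM in wild-type cells against 34.5 and 22.5 FPKM in knockout cells. Its libraries interleaved, and the change was 0.12 (SE 0.40, 95% interval -0.87 to 1.11, limma adjusted p = 0.867). Its direction was not fixed, at -0.24 without wild-type library 1 and 0.48 without wild-type library 2. Catsperg1 and Catsperg2 both encode subunit gamma and lie on chromosome 7. Catsperg2 was at 12.4 and 19.5 FPKM in wild-type cells against 16.8 and 15.2 FPKM in knockout cells, with both knockout values inside the wild-type range. The change of Catsperg2 was 0.03 (SE 0.36, 95% interval -0.85 to 0.92, limma adjusted p = 0.960). Catsperg1 was at 8.53 and 12.6 FPKM in wild-type cells against 3.26 and 9.31 FPKM in knockout cells. Only knockout library 1 lay below both wild-type values of Catsperg1, and the change was -0.78 (SE 0.52, 95% interval -2.06 to 0.50, limma adjusted p = 0.355). Without knockout library 2 the change of Catsperg1 was -1.42, and without knockout library 1 it was -0.14.

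The gamma genes are near-copies, and their separate values are uncertain. Of all stretches of 50 bases in the longest annotated transcript of Catsperg1, 41.0% also occur in that of Catsperg2. The sum of both genes does not depend on how shared reads were split. Wild-type sums were 20.9 and 32.0 FPKM, knockout sums 20.1 and 24.5 FPKM, so the ranges overlapped. The ratio of Catsperg2 to Catsperg1 was 1.45, 1.55 and 1.63 in wild-type libraries 1 and 2 and knockout library 2, and 5.16 in knockout library 1, which alone stood apart.

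Set against each other within a library, the classes changed places. The mean log2(FPKM + 1) of the pore-forming genes exceeded that of the auxiliary genes by 1.72 and 1.38 in the wild type and lay below it, at -1.71 and -1.61, in the knockout. The difference between the mean changes of the classes was -3.21. It kept its sign in all 14 alternatives fixed with the design and both added later, between -5.38 (pseudocount 0.1) and -1.86 (pseudocount 5). No p is given, because the genes were chosen with earlier results known. The class mean hides Catsper2: the mean of Catsper1, Catsper3 and Catsper4 was 5.41 and 5.46 in the wild type and 0.02 and 0.04 in the knockout.

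Lrrc52, which encodes the auxiliary subunit of SLO3, was at 27.4 and 20.7 FPKM in wild-type cells against 0.346 and 0.0614 FPKM in knockout cells. The groups were widely separated, and the change was -4.38 (SE 0.37, limma adjusted p = 0.00114). Kcnu1, the pore gene of the same channel, was at 15.03 and 19.6 FPKM in wild-type cells against 6.30 and 6.16 FPKM in knockout cells. Both knockout libraries were lower and close together, at 0.360 of the wild-type mean, and the change was -1.33 (SE 0.34, 95% interval -2.17 to -0.49). Kcnu1 missed the threshold narrowly (limma adjusted p = 0.0524) and passed with a pseudocount of 5 (-0.98, 0.0486) and with no mean-variance trend (0.0472). Its change was smaller after quantile normalization (-0.84, limma adjusted p = 0.135) and after the GC correction (-0.87, 0.151), and it did not pass with the replicate block (0.135). In this channel it was thus the auxiliary gene whose transcript was nearly lost, while the pore gene was lower by less. The FPKM ratio of Kcnu1 to Lrrc52 was 0.549 and 0.947 in the wild type and 18.2 and 100.4 in the knockout.

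**Figure D3:**
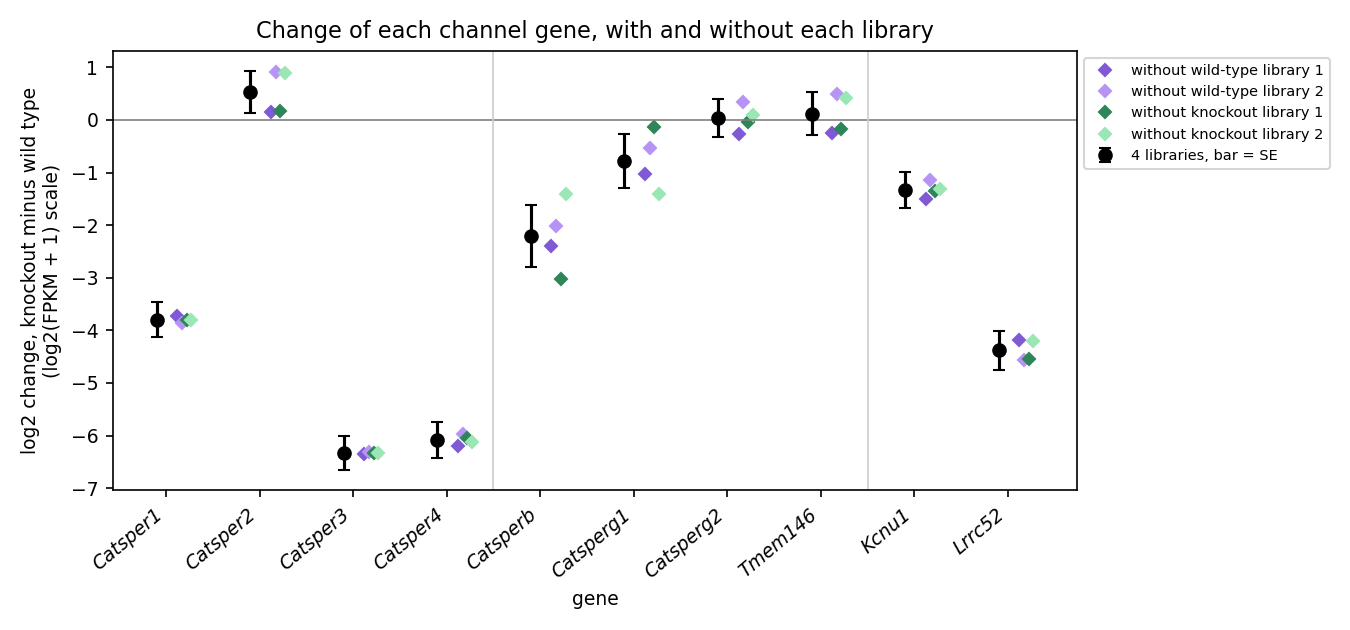
Change of each gene (vertical axis, knockout minus wild type on the log2(FPKM + 1) scale) from the fit to 4 libraries, with its standard error (SE), and from the fits that leave out 1 library (diamonds). The diamonds of Catsper1, Catsper3, Catsper4 and Lrrc52 stay near the point for 4 libraries, and those of Catsper2 range from 0.15 to 0.91, those of Catsperb from -3.02 to -1.40.

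The calls rested on few libraries even where the values did not move. They also rested on the prior degrees of freedom, 1.22 and 1.18 without wild-type library 1 or 2 against 3.84 with 4 libraries. Without wild-type library 2 the changes of Catsper1, Catsper3, Catsper4 and Lrrc52 were -3.86, -6.31, -5.97 and -4.57, close to those from 4 libraries, yet 0 genes in the whole table passed in limma, with 1412 of 9124 at an unadjusted p under 0.05. The adjusted p in that fit was 0.0653 for Catsper1, Catsper3 and Catsper4 and 0.0791 for Lrrc52. Without wild-type library 1 the 3 pore-forming genes passed (limma adjusted p = 0.0468, 0.0473 and 0.0473) and Lrrc52 did not (0.0745).

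In order of wild-type level, the channel genes ran from Catsper2 (mean 100.2 FPKM) through Catsper3 (83.5), Catsper4 (68.4), Tmem146 (26.4), Lrrc52 (24.0), Catsperb (20.7), Kcnu1 (17.3), Catsperg2 (15.9) and Catsper1 (12.9) to Catsperg1 (10.5). Neighbours in that order overlapped in range except Catsper3 with Catsper4 and Catsper4 with Tmem146. In the knockout the order was Catsper2 (144.7), Tmem146 (28.5), Catsperg2 (16.0), Catsperg1 (6.28), Kcnu1 (6.23), Catsperb (4.40), Lrrc52 (0.204), Catsper3 (0.0496), Catsper4 (0.0216) and Catsper1, listed at 0. There the ranges of Catsperg1 and Kcnu1, of Kcnu1 and Catsperb, and of Catsper4 and Catsper1 overlapped.

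Genes outside the channels with the most similar values were found by the distance of log2(FPKM + 1) over the 4 libraries. Nearest to Catsper3 were Morn3, H1fnt, the gene of a spermatid linker histone, and Spaca5, at distances of 0.12, 0.19 and 0.23. H1fnt was also nearest to Catsper4 (0.26), followed by Aqp7, an aquaporin gene (0.28), and Iqcf4 (0.35). Cpxcr1, Sh3yl1 and 1700123M08Rik were nearest to Catsper1 (0.09, 0.11 and 0.11), and each was listed at 0 in both knockout libraries. Nearest to Catsper2 were D2Wsu81e (0.27), Mtx1, a mitochondrial import gene (0.37), and Gtf2f1, a general transcription factor gene (0.38), none of them past the threshold. The neighbours of Catsper1, Catsper3 and Catsper4 all fell; the distance uses the same 4 values, so this is a description of likeness only.

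Further proteins of the CatSper complex were followed through 9 genes, of which 6 were found in the tables and tested; 0 fell, 1 rose and 5 did not pass in limma, and at an unadjusted p under 0.05 there were 1 lower and 2 higher, beside 23.0% and 8.3% of all genes tested. Gm16432, the older symbol of Catspere2, a gene for subunit epsilon, was at 0.358 and 0.419 FPKM in wild-type cells against 6.73 and 19.1 FPKM in knockout cells. With each wild-type value below 1 FPKM, Gm16432 could be tested only because it was high in the knockout. Both knockout libraries were far above both wild-type libraries, the opposite of Catsper1, Catsper3 and Catsper4, and the log2 change was 3.17 (SE 0.53, limma adjusted p = 0.0122). That call ended without wild-type library 1 (adjusted p = 0.331), without wild-type library 2 (0.348) and with no filter on low values (0.0630). A neighbouring gene, Catspere1, carries the same subunit name. It was among the 9 genes but was not found in the tables, so reads shared between Catspere1 and Gm16432 may count in the value of Gm16432. The most abundant gene of the complex was 1700019N12Rik, the older symbol of Catsperz, for subunit zeta, at 1096 and 877 FPKM in wild-type cells against 1613 and 2027 FPKM in knockout cells (limma adjusted p = 0.0965). Efcab9, for the calcium-binding partner of zeta, was at 471 and 376 FPKM in wild-type cells against 327 and 335 FPKM in knockout cells (limma adjusted p = 0.427). Trim69, Als2cr11 (C2cd6) and Slco6c1 had changes of -0.50, -0.97 and -0.87, and the median of the 6 genes was -0.42.

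Of 20 genes for other ion transport and pH control in sperm, 19 were in the tables and 8 were tested, of which 2 fell, 0 rose and 6 did not pass in limma, with 7 lower and 0 higher at an unadjusted p under 0.05, where 23.0% of all genes tested were lower and 8.3% higher. Atp1a4, the sperm form of the sodium pump, was at 16.1 and 24.1 FPKM in wild-type cells against 0.360 and 0.0167 FPKM in knockout cells (change -4.14, SE 0.40, limma adjusted p = 0.00166). Adcy10, the bicarbonate-sensing adenylyl cyclase upstream of sperm motility, was at 9.35 and 18.7 FPKM in wild-type cells against 0.235 and 0.456 FPKM in knockout cells (-3.41, SE 0.44, limma adjusted p = 0.00463). Both genes were lower in each knockout library, and both calls ended without wild-type library 1 (adjusted p = 0.0794 and 0.0749) or wild-type library 2 (0.0993 and 0.0992). Nhedc1 (Slc9b1), a sodium/proton exchanger gene and the most abundant of the list, was at 95.2 and 94.3 FPKM in wild-type cells against 73.8 and 71.0 FPKM in knockout cells (limma adjusted p = 0.377). All 8 tested genes had negative changes, as had 59.8% of all genes tested, and their median was -1.25. Atp1a4, Adcy10, Slc9a8 and Slc4a7 had each knockout value below 1 FPKM and could be tested only because they were high in the wild type. Both genes that fell were among them, so these counts and the median lean towards falls. The other 11 genes in the tables had means below 1 FPKM.

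**Figure D4:**
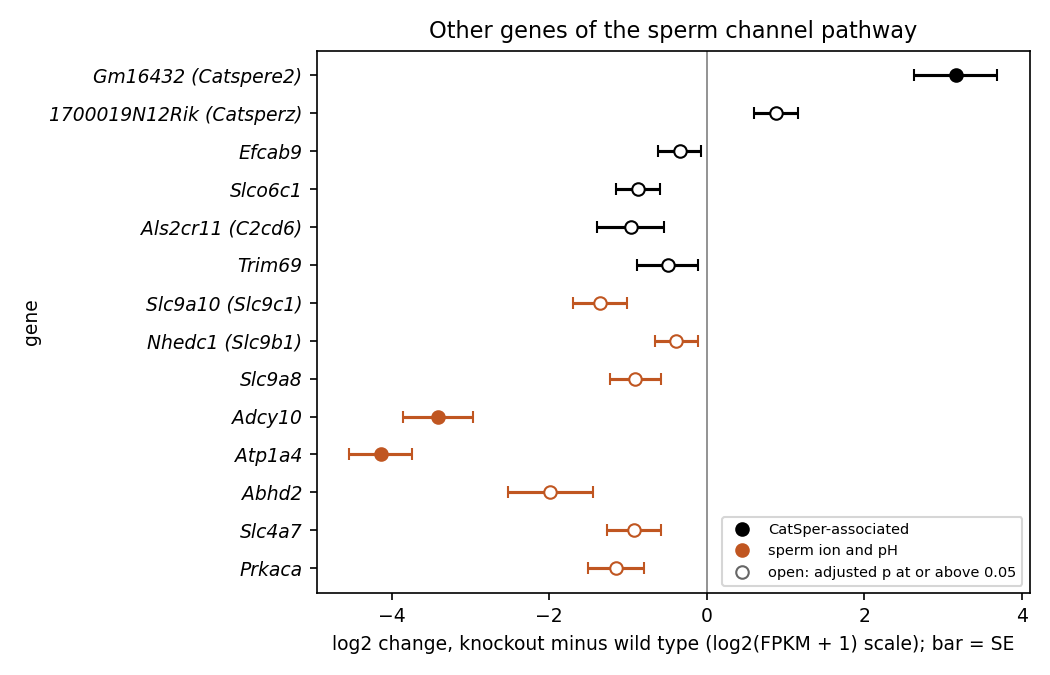
Change (horizontal axis, knockout minus wild type on the log2(FPKM + 1) scale, bars are SE) of the 6 further CatSper complex genes and the 8 sperm ion transport and pH genes that were tested. Gm16432 (Catspere2) stands to the right at 3.17, Atp1a4 and Adcy10 to the left at -4.14 and -3.41, and open symbols mark genes that did not pass.

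Marker genes of other germ cells and of other testis cells were read in the same libraries. Elongating spermatid markers summed to 12210 and 7124 FPKM in wild-type libraries against 51.1 and 35.4 FPKM in knockout libraries. Of these 8 markers 7 fell, where 13.4% of all genes tested fell. Prm2, Akap4 and Gapdhs among them had each knockout value below 1 FPKM and could be tested only through the wild type. Spermatocyte markers summed to 5897 and 4844 FPKM in wild-type libraries against 6114 and 5836 FPKM in knockout libraries, a sum made up mostly of Ldhc, at 5002 and 4016 FPKM against 5186 and 5056 FPKM. Over the 14 spermatocyte markers the median change was -0.74. Of these, 1 fell and 0 rose, beside 13.4% and 1.95% of all genes tested. At an unadjusted p under 0.05, 5 were lower and 0 higher, beside 23.0% and 8.3% of all genes tested. Of 5 tested spermatogonia markers 4 fell, beside 13.4% of all genes tested, and the median was -2.01. At an unadjusted p under 0.05, 4 were lower and 1, Id4, was higher, beside 23.0% and 8.3% of all genes tested. The list summed to 39.6 and 43.9 FPKM in wild-type cells against 19.2 and 18.8 FPKM in knockout cells. Neither knockout library held a value above 0 for 3 of those that fell, Stra8, Dmrt1 and Sohlh1. These 3 could be tested only through the wild type, so a fall was the only outcome open to them. Stra8 had wild-type levels of 7.20 and 5.48 FPKM. Of the Sertoli cell markers, 3 were tested and 0 passed in limma. Clu, 1 of the 3, was lower at an unadjusted p under 0.05, as were 23.0% of all genes tested. Of the peritubular and endothelial markers 1 of 2 tested fell, beside 13.4% of all genes tested. The part of these markers in the changes of the channel genes was not tested. The neighbours of the fallen genes on the chromosome that could be tested were Pcbd2 and Mgst3. Pcbd2, beside Catsper3, was at 12.9 and 10.5 FPKM in wild-type cells against 3.54 and 11.9 FPKM in knockout cells (limma adjusted p = 0.419). Mgst3, a glutathione transferase gene beside Lrrc52, rose, with wild-type levels of 24.4 and 16.0 FPKM and knockout levels of 72.0 and 56.7 FPKM (limma adjusted p = 0.0282); without wild-type library 1 or 2 no gene passed as a rise. The protein-coding neighbours of Catsper1 and Catsper4, the other neighbour of Catsper3 and that of Lrrc52 had means too low to be tested. Among these, Cnksr1 beside Catsper4 had wild-type levels of 0.513 and 0.184 FPKM and Rxrg beside Lrrc52 of 0.355 and 0.0638 FPKM. Each knockout library listed both genes at 0, as it did 9329 (library 1) and 11112 (library 2) of all 22552 symbols. Gal3st3 beside Catsper1 was higher, at 1.40 and 1.17 FPKM in knockout cells against 0.552 and 0.837 FPKM in wild-type cells. Cst6 beside Catsper1 and Pitx1 beside Catsper3 did not lie below the wild type in both knockout libraries.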

How the data were processed

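The deposited values are FPKM for each gene, computed by the authors; per the submitters' processing notes the tools were TopHat2 2.0.6, Cufflinks 2.0.2 and Cuffdiff on build mm9. The labels' protocols name the NEBNext Ultra kit for library construction. Whether strand was used, which annotation and which settings are each not given in the sources used here. Each of the 4 tables had 23021 entries for 22552 symbols, and the 259 symbols on more than 1 entry were summed. Groups came from the sample titles.

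Values were taken as log2(FPKM + 1) without rescaling. A limma 3.58.1 fit in R 4.3.3 had genotype as its only term, a mean-variance trend, 2 residual and 3.84 prior degrees of freedom. All tests were two-sided; 95% intervals came from the same fit. Relative depth was read as the commonest ratio of values below 0.5 FPKM. Of 9124 genes in simulated data, 200 were given log2 changes of -2 or -4, of which the fit called 28.6% and 73.2%, beside an average of 2.2 false calls.

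The channel genes, lists and named-gene rule (all channel genes and Sox30; in each pathway list the genes past the threshold and the most abundant; the 3 nearest patterns of each pore-forming gene) were chosen with earlier results of these data known. CG counts, chromosomal neighbours and Pdia3 were chosen after seeing values. Older symbols came from RefSeq (GRCm38.p6). Neighbours and the overlap of Catsper2 with Pdia3 were found from the RefSeq gene coordinates, on a build other than that of the authors. Promoter letters came from RefSeq; Catsper1, Catsperg2 and Kcnu1 had no window. Protein sequences were not used here. Alternatives are listed with their effects at the end.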

Additional observations from a re-analysis of the deposited data

How the results depend on the processing

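Of 16 alternatives, 15 left 3 pore-forming genes fallen; the exception was the fit without wild-type library 2, so that leaving out a library gave 0 to 3. Over the fits that each left out a library, 0 to 3071 of all genes fell and 0 to 984 rose, 0 to 2 auxiliary genes and 0 to 2 potassium channel genes fell, 0 to 3 of the other CatSper genes and 0 to 7 of the ion and pH genes fell, 0 to 1 channel genes rose, and the Sox30 change was -2.57 to -1.81. Where 1 library was left in a genotype, it was taken to vary like the other genotype. The prior degrees of freedom were infinite without a knockout library, so that each spread came from the trend alone. They were 1.22 or 1.18 without wild-type library 1 or 2. Calls and counts from these fits can therefore not be compared with one another. All genes that fell numbered 1221, and 787 with a mean of at least 5 FPKM, where fewer genes were tested. All genes that rose numbered 178, against 113 with a pseudocount of 0.1, 62 with no filter, 283 with median-ratio scaling, 961 with quantile normalization and 321 after the GC correction. Auxiliary genes that fell numbered 1 with a pseudocount of 5, a mean of at least 5 FPKM, median-ratio scaling or quantile normalization. Potassium channel genes that fell numbered 2 with a pseudocount of 5 or no mean-variance trend, and ion and pH genes 4 with a pseudocount of 5. Sox30 was at -2.19 with no filter (limma adjusted p = 0.0660). The pore minus auxiliary difference was -5.38 and -1.86 with pseudocounts of 0.1 and 5 and -3.44 after the GC correction. Leaving out a library, Tmem146 ranged from -0.24 to 0.48 and Catsperg2 from -0.27 to 0.34. The cause of these shifts was not tested.

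Library numbers in the titles are not known to pair the samples. With the number as a replicate block 82 genes rose and 1 auxiliary gene, Catsperb, fell (limma adjusted p = 0.0474), and the block changed no other call on a channel gene. Deviations of same-numbered libraries correlated at -0.20 across 9124 genes; with crossed numbers, chosen after seeing the data, 390 genes rose, and 1 auxiliary, 2 potassium channel and 4 ion and pH genes fell. Depth limits values near 0.05 FPKM, which may rest on a few fragments, and the few libraries limit all calls. Median-ratio scaling moved the median change of all genes tested from -0.23 to -0.07, and quantile normalization to 0.24.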
